A study of Homo sapiens with 38 samples.

Results

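The interferon-stimulated genes followed here are 34 genes, listed under 35 symbols because DDX58 and RIGI name the same gene, and all of them are known to be switched on when a cell senses interferon. Each gene was represented by 1 probe set, taken as the brightest on average across 38 arrays of those that name no other gene, and no filter on expression was applied. A probe set was matched for 33 of the 34 genes, out of 19775 genes measured in this way. STAT2 was not analysed here. The rule that names them uses their known pathway and no measured value, but they were chosen with earlier results of these data known.

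The arrays measured RNA of IMR90 cells, a strain of normal human lung fibroblasts, in groups of 2 arrays. In experiment 1, cells carried the vector MLP with a hairpin against one retinoblastoma family protein (shRB against RB, shp107 against p107, shp130 against p130), or MLP alone, and were senescent after ras expression, confluent, kept in low serum with 0.1% fetal bovine serum (FBS), or growing. Growing cells were in 10% FBS, and the labels give no other medium for the confluent and senescent cells. This gave 16 groups and 32 arrays. Experiment 2 held senescent shRB, senescent vector and growing vector cells, in 3 groups and 6 arrays. The labels name neither the ras construct nor the hairpin sequences. Whether the 2 arrays of a group are separate cultures is not said either, and the p-values therefore cover the spread between arrays alone, which may be technical. With 2 arrays a group, the number of arrays limits the precision of every value below.

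Interferons are secreted proteins that bind receptors on the cell surface. Type I interferons act through the kinases JAK1 and TYK2 on transcription factors in the cell. The complex ISGF3, which contains IRF9, binds a short DNA element, the interferon-stimulated response element (ISRE), in front of many of the genes described here. Type II interferon acts through a different element called GAS. The products limit virus entry, degrade or sequester viral RNA, tag proteins, sense foreign nucleic acid and cut peptides for display to T cells. Fibroblasts are a standard cell type for studying the response, and low expression of some of these genes in the absence of infection is well known.

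The response elements can be read in the genes' own sequence. RefSeq promoter windows from 250 bases before to 50 bases after each gene's start (build GRCh38.p14) were matched for 26 of the 33 genes and searched on both strands, overlapping matches included, for the ISRE core GAAANNGAAA and the GAS core TTCNNNGAA, where N is any base. The windows below were taken from genes with a called change and a match to the ISRE core. Where a gene had several windows, 1 with a match is shown. IFI35, called in both experiments but without a match, is not among them. Capitals mark each match to the ISRE core, which reads TTTCNNTTTC where it lies on the opposite strand. The first is IFI6 (chr1:27672168-27672442, minus strand), from base -250 to base 25 relative to the start, with 3 matches.
IFI6: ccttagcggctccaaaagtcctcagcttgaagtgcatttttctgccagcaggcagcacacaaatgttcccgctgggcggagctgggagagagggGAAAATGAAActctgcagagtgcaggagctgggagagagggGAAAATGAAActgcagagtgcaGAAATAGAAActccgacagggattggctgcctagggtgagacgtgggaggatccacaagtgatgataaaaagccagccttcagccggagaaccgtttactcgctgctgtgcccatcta
The next are stretches of 60 bases around the matches of ISG15 (chr1:1013362-1013421, plus strand), where 2 matches overlap, IFIT1 (chr10:89392488-89392547, plus strand), IFIT3 (chr10:89327833-89327892, plus strand) and IFIT5 (chr10:89414518-89414577, plus strand).
ISG15: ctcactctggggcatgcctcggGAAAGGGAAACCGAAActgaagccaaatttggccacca
IFIT1: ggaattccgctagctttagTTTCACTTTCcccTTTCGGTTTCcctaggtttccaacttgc
IFIT3: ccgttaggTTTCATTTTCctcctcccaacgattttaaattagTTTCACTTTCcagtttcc
IFIT5: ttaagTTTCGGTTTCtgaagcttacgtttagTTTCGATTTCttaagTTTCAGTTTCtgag
ISG20 (chr15:88638922-88638981, plus strand), PSMB8 (chr6:32844023-32844082, minus strand) and MX1 (chr21:41420523-41420582, plus strand) hold 1 match each in the window shown.
ISG20: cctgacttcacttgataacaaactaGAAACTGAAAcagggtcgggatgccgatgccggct
PSMB8: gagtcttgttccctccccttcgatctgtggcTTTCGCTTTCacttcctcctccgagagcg
MX1: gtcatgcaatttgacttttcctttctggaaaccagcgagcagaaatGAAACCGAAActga

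At least 1 ISRE core was found for 19 of the 26 genes (73.1%), against 3.98% of all genes measured on the arrays whose promoters were in the table. The GAS core was found for 10 of the 26 (38.5%), against 8.97% of the measured genes. IFI35, OAS1, IRF1, IRF9, RIGI, XAF1 and PSMB9 had no ISRE core in the window. IFIT2, IFITM2, OAS2, OASL, MX2, IRF7 and USP18 had no entry. A match is a run of letters and not a shown binding site, and its absence says only that these letters are not in the window.

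The genes differed widely in level. Values are log2 expression made by GCRMA, on which 1 unit is a 2-fold difference, and the median of each array lay between 3.27 and 3.41. ISG15, IFIT5, IFITM2, IFITM3 and TAP1 exceeded a log2 value of 5 on every one of the 38 arrays. 15 genes did so on no array, namely IFI27, IFI35, IFI44, IFI44L, MX1, MX2, OAS1, OAS2, OAS3, OASL, IRF7, RSAD2, XAF1, BST2 and PSMB9. The other 13 passed 5 on some arrays. In senescent cells of experiment 1 the mean of the 33 genes was 5.45 and 5.01 on the shRB arrays, 4.62 and 4.28 on the shp107 arrays, 4.53 and 4.44 on the shp130 arrays, and 4.47 and 4.42 on the vector arrays. Growing vector arrays had means of 4.96 and 4.82. The 3 senescent groups without shRB thus lay below growing vector cells, and senescent shRB cells above them. In experiment 2 the means were 4.81 and 4.80 in senescent shRB cells, 4.22 and 4.20 in senescent vector cells, and 4.71 and 4.48 in growing vector cells. These means are a description and were not tested.

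**Figure D1:**
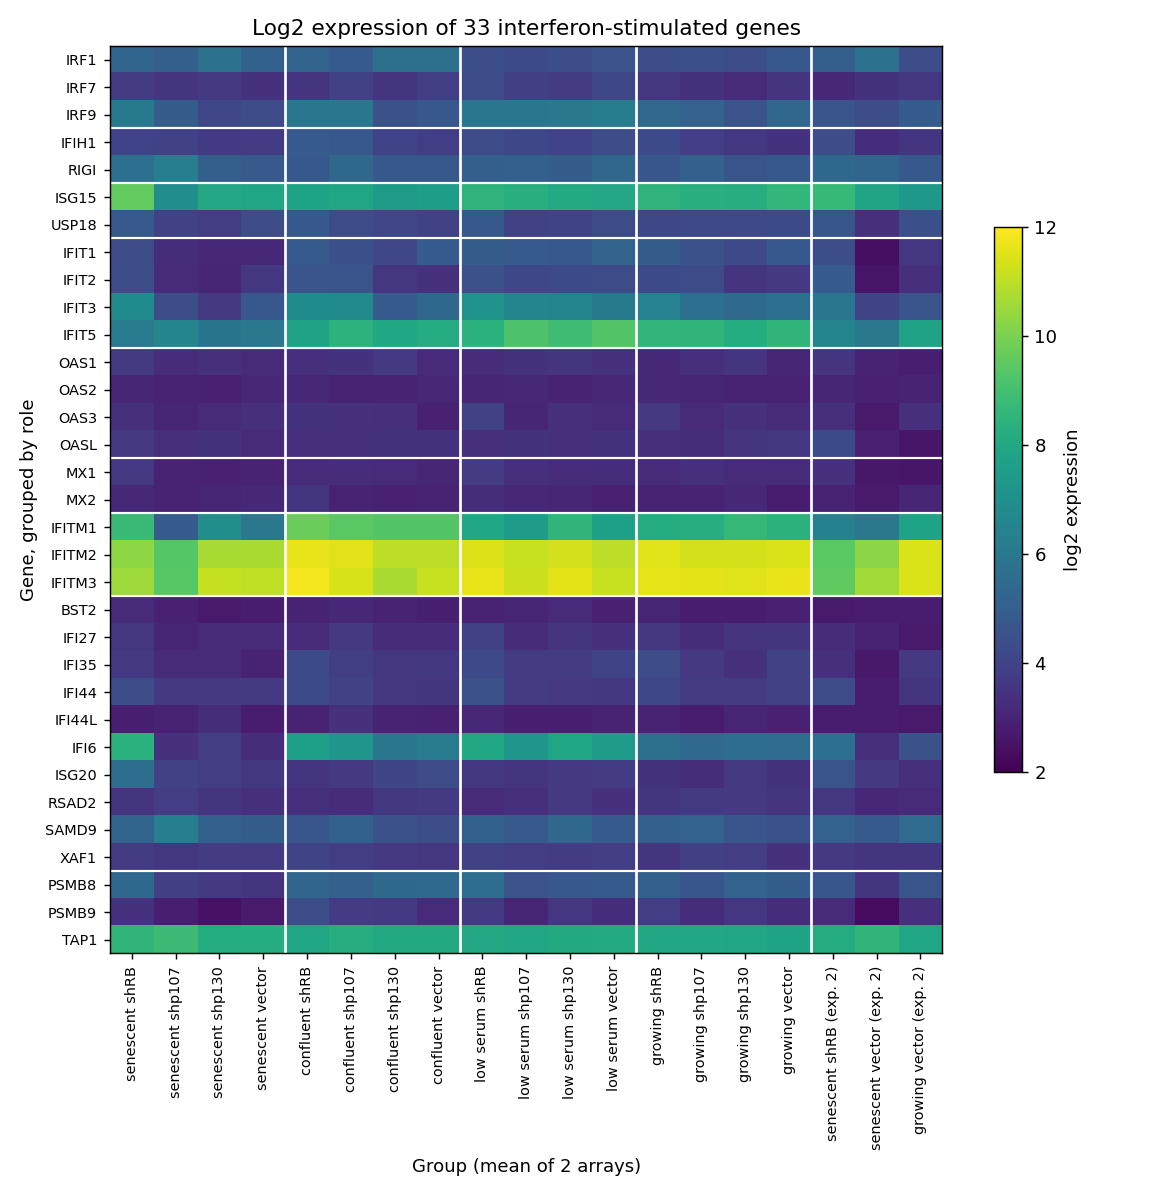
Mean log2 expression (colour, 2 arrays per group) of 33 interferon-stimulated genes, in rows by role, in 19 groups, in columns by state with shRB, shp107, shp130 and vector side by side, and experiment 2 at the right. ISG15, IFIT5, IFITM2, IFITM3 and TAP1 are above 5 in every group. The 15 genes that exceed 5 on no single array, and also IFIT2, IFIH1 and USP18, have no group mean above 5.

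The arrays were first checked against their labels. RB1 fell in shRB against vector cells in all 4 states of experiment 1, by 4.05 (growing) to 5.32 (senescent) on the log2 scale, and by 2.28 in senescent cells of experiment 2. RBL2, which encodes p130, fell by 2.35 to 2.88 with shp130. RBL1, which encodes p107, was dim and its change with shp107 was not called in any state, so the arrays do not show that this knockdown worked. Arrays of 1 group correlated at 0.98 to 0.997 over all probe sets. All 7 fibroblast markers exceeded 5 on at least 1 array, whereas none of 4 leukocyte, 2 plasmacytoid dendritic, 4 endothelial and 4 epithelial markers did so on any array. In cultures measured in bulk, fewer cells that express a gene and less RNA per cell cannot be told apart. Some pairs of arrays differed clearly in these genes. Of the confluent vector arrays, the first had the lower IFIT1 value (2.90, against 6.94) and the higher IRF1 value (6.67, against 4.73). Senescent shp107 replicate 2 was low in IFITM1 (3.03, against 6.81 in replicate 1), and low-serum vector replicate 1 was above replicate 2 in IFI6, IFIT3 and IFITM1.

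**Figure D2:**
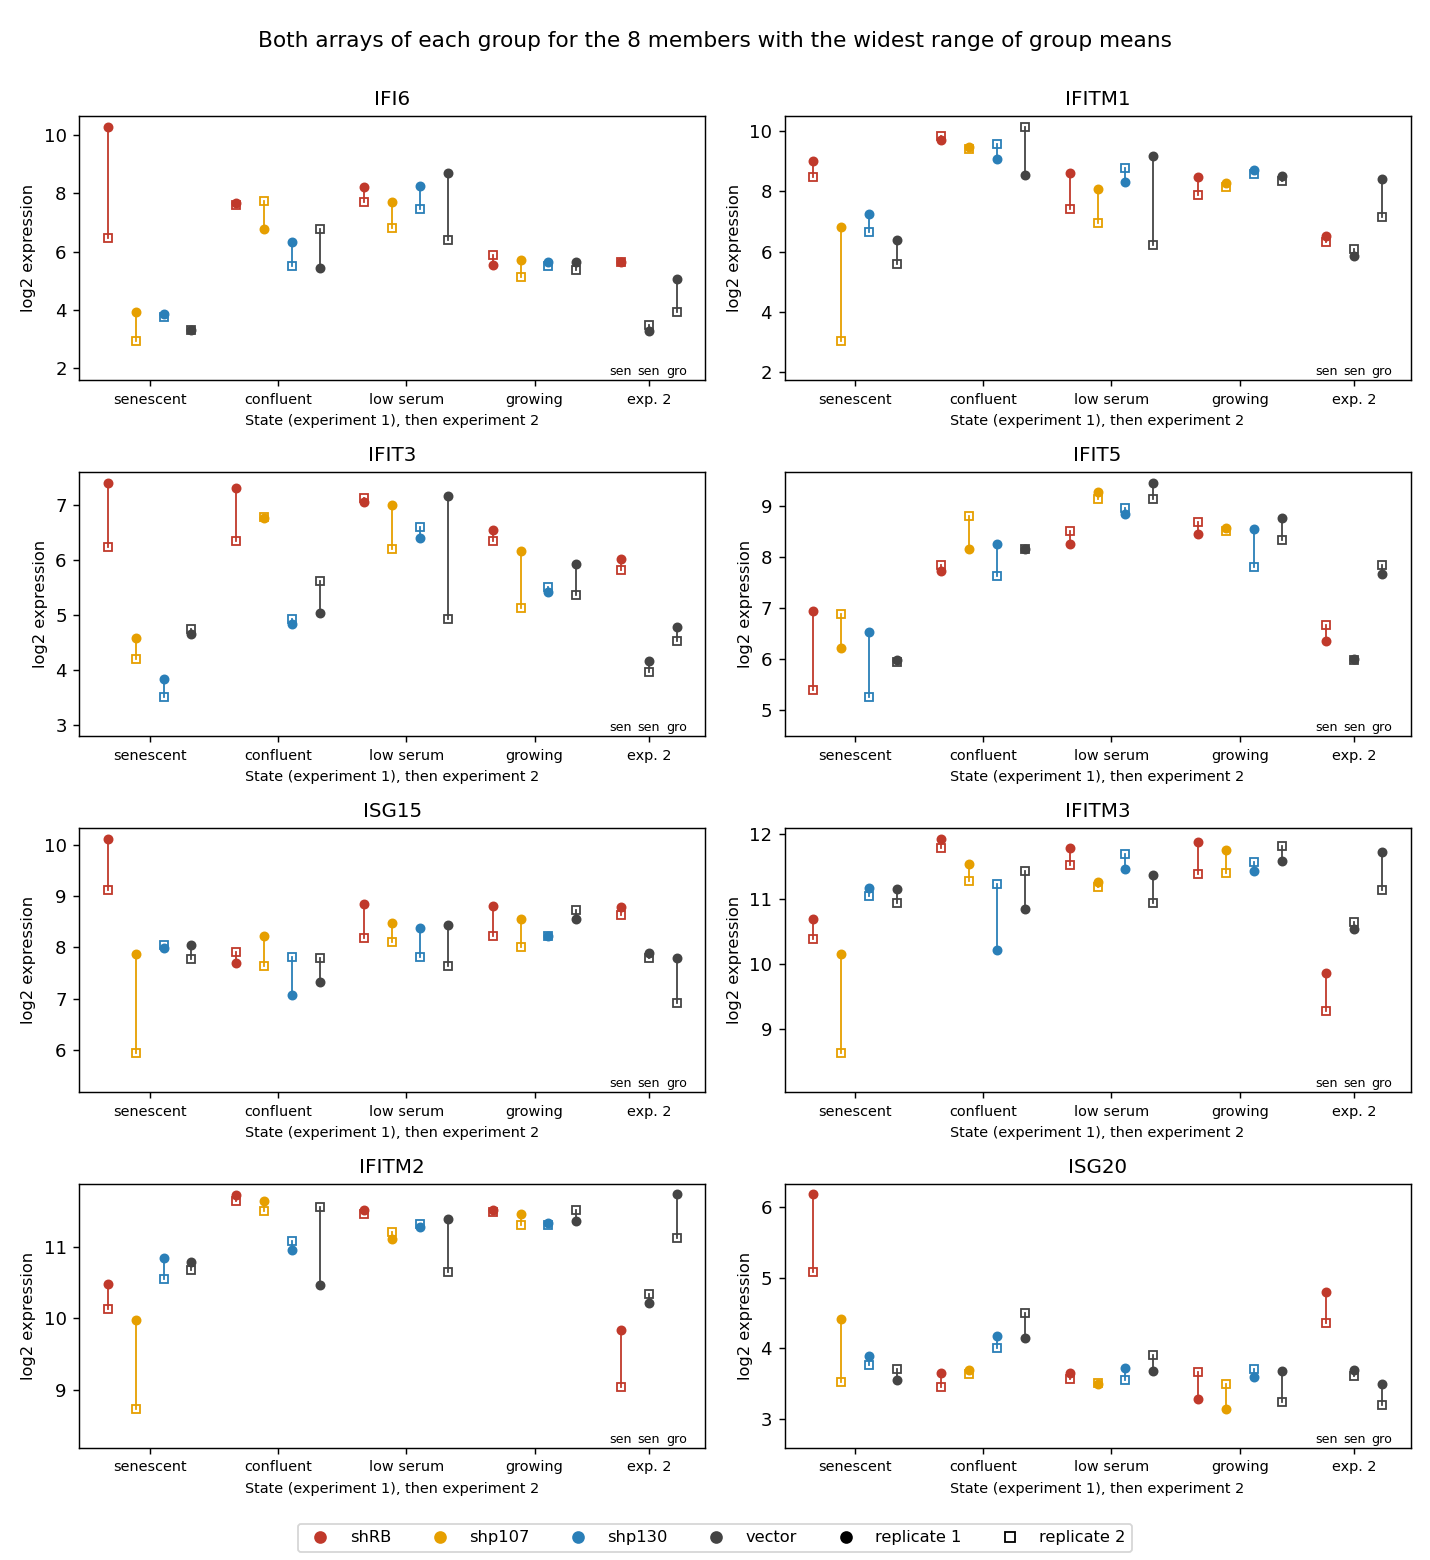
Log2 expression on both arrays of each group (filled circle replicate 1, open square replicate 2, joined by a line) for the 8 genes with the widest range of group means in experiment 1, by state in experiment 1 and then experiment 2 (sen marks senescent and gro growing). IFIT5 is lowest in all senescent groups, ISG20 exceeds 5 only with senescent shRB, and the 2 senescent shRB arrays of IFI6 lie at 10.28 and 6.47.

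The comparison of shRB with vector asks what suppression of RB does in each state, and senescent cells are described first because both experiments hold them. In experiment 1, 9 of 33 genes rose with shRB in senescent cells and 0 fell, where 2.77% of all 19775 genes were called higher and 1.27% lower. The calls are those of limma at a Benjamini-Hochberg adjusted p under 0.05, adjusted over all genes within each comparison. The 9 were IFI6, ISG15, ISG20, IFI35, IFIT3, IFITM1, MX1, IRF9 and PSMB8. The median change of the 33 genes was 0.43 and that of all genes 0.03. In experiment 2, 15 rose and 2 fell, where 6.16% of all genes were called higher and 4.17% lower. IFI6, ISG20, IFI35, IFIT3, MX1 and PSMB8 rose in both experiments, which is 66.7% of the first list and 40.0% of the second, and 27 of the 33 changes had the same sign. This overlap and this count of signs were not computed over all genes, so they do not set the 33 apart. The 2 experiments share no arrays. Between them the effect differed at an unadjusted p under 0.05 in limma for 12 of the 33 genes, and for 2122 of all 19775 genes. These differences had both signs, with -2.80 for IFI6 and 0.90 for OASL (experiment 2 minus experiment 1). After adjustment the difference was called for 1 of the 33, IFIT2, with 1.55 ± 0.38 (SE, adjusted p = 0.0478), where 0.298% of all genes were called higher and 0.379% lower. That call was lost without any 1 of the 8 arrays compared.

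IFI6, a mitochondrial and endoplasmic reticulum protein that protects cells from apoptosis and limits flavivirus replication, had the largest change of the 33 in experiment 1. There its log2 values were 10.28 and 6.47 in senescent shRB cells, against 3.31 and 3.30 in senescent vector cells. Both shRB arrays were above both vector arrays, although they were far apart from each other. The change was 5.07 ± 0.74 (SE, adjusted p = 6.58e-05), or 33.6-fold, and it was 3.17 without shRB replicate 1 and 6.97 without replicate 2, with adjusted p no higher than 0.00567 in any fit without 1 array. Experiment 2 gave 5.66 and 5.66 in senescent shRB cells, against 3.29 and 3.48 in senescent vector cells. There the change was 2.27 ± 0.28 (SE, adjusted p = 0.000336). ISG20, an exonuclease that degrades single-stranded RNA, had values of 6.18 and 5.08 in senescent shRB and 3.56 and 3.70 in senescent vector cells of experiment 1. Senescent shRB was its only group in either experiment with a mean above 5. Its change was 2.00 ± 0.26 (SE, adjusted p = 1.4e-05), and in experiment 2 it was 0.93 ± 0.17 (SE, adjusted p = 0.00501). A dimmer ISG20 probe set gave a difference of 4.26 in experiment 1 and 1.76 in experiment 2, in the same direction.

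Of the transcription factors, IRF9, the DNA-binding subunit of ISGF3, had values of 6.74 and 5.34 in senescent shRB cells and 4.28 and 4.29 in senescent vector cells of experiment 1. The shRB arrays were both higher, and the change was 1.75 ± 0.44 (SE, adjusted p = 0.0177). In experiment 2 its values were 4.75 and 4.55 with shRB and 4.35 and 4.39 with vector, a change of 0.28 ± 0.18 (SE, adjusted p = 0.383) that was not called. IRF1, an activator that both interferon types and inflammatory signals induce, went the other way in experiment 2, with 4.93 and 5.12 in shRB and 5.72 and 5.84 in vector cells. The change was -0.75 ± 0.19 (SE, adjusted p = 0.0254), and its change in experiment 1 was 0.16 ± 0.37 (SE, adjusted p = 0.913). A second IRF1 probe set had the other sign in experiment 2, with a difference of 0.07. IRF7, which amplifies interferon production in virus-infected cells, was called in neither.

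Of the RNA sensors, IFIH1 (MDA5), which detects long double-stranded RNA, had 4.44 and 4.30 in senescent shRB and 3.34 and 3.26 in senescent vector cells of experiment 2. The groups were apart, and the change was 1.07 ± 0.13 (SE, adjusted p = 0.000418). In experiment 1 it was 0.27 ± 0.27 (SE, adjusted p = 0.747) and not called. Its other probe sets gave 0.92 and 0.12 in experiment 2. RIGI, which detects RNA with a triphosphate end, was called in neither experiment.

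ISG15, a ubiquitin-like protein that is joined to other proteins, was among the brightest of the genes. Its values in experiment 1 were 10.12 and 9.11 in senescent shRB cells and 8.04 and 7.78 in senescent vector cells. Both shRB arrays were higher than any other array of either experiment, and the change was 1.70 ± 0.45 (SE, adjusted p = 0.025). In experiment 2 it had 8.79 and 8.63 in shRB and 7.90 and 7.80 in vector cells, a change of 0.86 ± 0.27 (SE, adjusted p = 0.0666) that was not called although the groups did not overlap. USP18, the protease that removes ISG15 and dampens receptor signalling, rose in experiment 2 by 1.27 ± 0.20 (SE, adjusted p = 0.00212), with 4.52 and 4.81 in shRB and 3.51 and 3.28 in vector cells. Its change in experiment 1 was 0.45 ± 0.27 (SE, adjusted p = 0.492), with overlapping arrays.

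Of the IFIT proteins, IFIT1 binds RNA that lacks the cap modifications of the cell's own messages. IFIT3 had 7.41 and 6.23 in senescent shRB and 4.66 and 4.74 in senescent vector cells of experiment 1, and rose by 2.12 ± 0.48 (SE, adjusted p = 0.00823). It rose as well in experiment 2, with 6.02 and 5.82 in shRB and 4.17 and 3.96 in vector cells, a change of 1.85 ± 0.18 (SE, adjusted p = 6.16e-05). The groups were apart in both. A dimmer IFIT3 probe set gave smaller differences, 0.57 in experiment 1 and 1.35 in experiment 2. IFIT1 and IFIT2 rose in experiment 2 by 2.00 ± 0.13 (SE, adjusted p = 4.08e-06) and 2.32 ± 0.18 (SE, adjusted p = 1.62e-05). A second IFIT2 probe set gave 1.19 there. In experiment 1 the changes were 1.14 ± 0.77 (SE, adjusted p = 0.567) and 0.78 ± 0.27 (SE, adjusted p = 0.13), neither called. IFIT5 was not called in either experiment, and its changes were 0.20 and 0.53.

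The enzymes OAS1, OAS2 and OAS3 make the messenger that activates RNase L, and the MX proteins are GTPases that trap viral nucleocapsids. All 6 OAS and MX genes, OASL included, were dim, with no array above 5. MX1 had 4.14 and 3.19 in senescent shRB and 2.92 and 3.05 in senescent vector cells of experiment 1, and rose by 0.68 ± 0.20 (SE, adjusted p = 0.0455). Replicate 1 of shRB carried most of that difference, which was 0.20 and not called without it. In experiment 2 MX1 rose by 0.76 ± 0.15 (SE, adjusted p = 0.00736). OASL had 4.19 and 4.29 in senescent shRB and 2.88 and 2.95 in senescent vector cells of experiment 2, and rose by 1.33 ± 0.12 (SE, adjusted p = 3.54e-05), which its second probe set matched with a difference of 1.40. OAS1 and OAS3 rose in experiment 2 by 0.55 ± 0.13 (SE, adjusted p = 0.017) and 0.64 ± 0.13 (SE, adjusted p = 0.00966), while their second probe sets gave -0.08 and 0.29. OAS2 and MX2 were not called in either experiment.

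The IFITM proteins sit in membranes and block fusion of viruses, and the 3 genes had changes of both signs. IFITM1 had 9.0 and 8.48 in senescent shRB and 6.38 and 5.58 in senescent vector cells of experiment 1, and rose by 2.76 ± 0.80 (SE, adjusted p = 0.0484). The call was lost whichever of the 4 arrays was left out, with changes of 2.36 to 3.16. In experiment 2 the IFITM1 change was 0.44 ± 0.33 (SE, adjusted p = 0.471). IFITM3 fell in experiment 2, with 9.86 and 9.28 in shRB and 10.54 and 10.65 in vector cells, a change of -1.02 ± 0.23 (SE, adjusted p = 0.0134). IFITM2 had changes of -0.42 and -0.84, neither called. The 3 genes are similar in sequence and their probe sets may share signal, so these values are uncertain as to which gene they measure.

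Of the other effectors, IFI35, a protein that binds NMI, rose by 0.70 ± 0.18 (SE, adjusted p = 0.0253) in experiment 1 and by 0.66 ± 0.17 (SE, adjusted p = 0.0273) in experiment 2. Its levels were low throughout, with 3.53 and 3.79 in senescent shRB and 2.90 and 3.04 in senescent vector cells of experiment 1. IFI44 rose in experiment 2 by 1.54 ± 0.18 (SE, adjusted p = 0.000211), and its second probe set gave 0.31. IFI27, IFI44L, RSAD2 (viperin, which makes a chain terminator of viral RNA synthesis), SAMD9, XAF1 and BST2 (tetherin, which holds budding virus to the cell) were called in neither experiment. RSAD2, IFI44L, BST2, OAS2 and XAF1 were called in no comparison of any state or hairpin, and their values on the 38 arrays lay between 2.52 for BST2 and 4.35 for XAF1. A dimmer XAF1 probe set differed between shRB and vector by 1.07 in confluent and 0.71 in senescent cells of experiment 1. In senescent cells of experiment 2 it gave 0.40. The dimmest XAF1 probe set gave -0.04, -0.02 and 0.22 in that order, and a second RSAD2 probe set 0.17, -0.28 and 0.55.

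The antigen processing genes PSMB8 and PSMB9 encode subunits of the immunoproteasome, and TAP1 a subunit of the peptide transporter into the endoplasmic reticulum. PSMB8 had 6.0 and 4.76 in senescent shRB and 3.65 and 3.36 in senescent vector cells of experiment 1, and rose by 1.88 ± 0.37 (SE, adjusted p = 0.00228). It had 4.84 and 4.48 in shRB and 3.61 and 3.42 in vector cells of experiment 2, where it rose by 1.15 ± 0.24 (SE, adjusted p = 0.00919). All shRB arrays were above all vector arrays within each experiment. PSMB9 rose in experiment 2 by 0.93 ± 0.18 (SE, adjusted p = 0.00643), and TAP1 was called in neither.

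These counts rested partly on single arrays. In experiment 1 the number called, 9, became 3 without senescent vector replicate 1, 2 without senescent vector replicate 2 and 4 without senescent shRB replicate 1. IFI6 and ISG20 were called in all 4 fits that left out 1 of the arrays compared. In experiment 2 the number called, 17, became 11 and 10 without senescent vector replicates 1 and 2, and 11 without senescent shRB replicate 2. No fibroblast marker was called between senescent shRB and vector cells in experiment 1, while in experiment 2 COL1A2 fell and DCN rose. The summed log2 level of the 7 fibroblast markers was 70.2 in senescent shRB and 68.5 in senescent vector cells of experiment 1, and 68.7 in senescent shRB and 67.2 in senescent vector cells of experiment 2. Its part in the result was not tested.

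**Figure D3:**
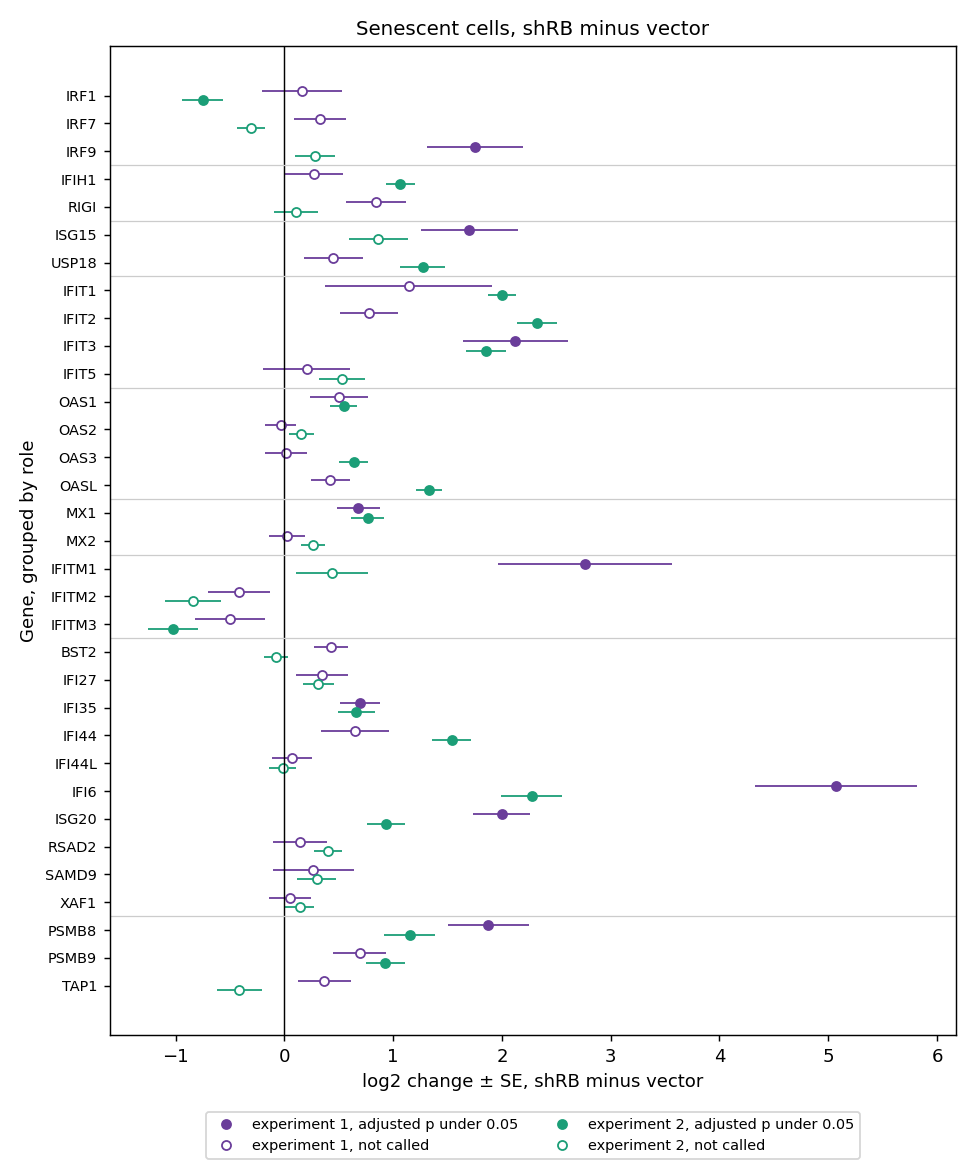
Log2 change (shRB minus vector, ± SE) of 33 genes in senescent cells of experiment 1 (purple) and experiment 2 (green), in rows by role, with filled points for adjusted p under 0.05. IFI6 is farthest to the right in experiment 1 at 5.07, and IFITM2 and IFITM3 lie left of 0 in both.

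The effect of shRB was then compared across states. In growing cells 0 genes were called, where 0.131% of all genes were, and in low serum 0 were called, where 0.0506% of all genes were. At an unadjusted p under 0.05 the counts were 4 in growing, 7 in low-serum, 15 in confluent and 15 in senescent cells. Of all 19775 genes, 925, 1215, 3486 and 2772 passed in that order. Senescent cells were not tested against confluent ones. In confluent cells 5 rose and 0 fell, where 2.95% of all genes were called higher and 3.76% lower. These 5 were IFI35, IFIT2, MX2, IFIH1 and PSMB9. PSMB9 had 4.42 and 4.41 in confluent shRB and 3.25 and 3.12 in confluent vector cells, and rose by 1.23 ± 0.24 (SE, adjusted p = 0.00143). IFIT2 had 4.22 and 5.04 in confluent shRB and 3.12 and 3.70 in confluent vector cells, and rose by 1.22 ± 0.27 (SE, adjusted p = 0.0044). The shRB arrays were above the vector arrays for both genes. IFIH1 rose by 1.02 ± 0.27 (SE, adjusted p = 0.0162), IFI35 by 0.65 ± 0.18 (SE, adjusted p = 0.0287) and MX2 by 0.55 ± 0.17 (SE, adjusted p = 0.0417). Other probe sets gave smaller differences, 0.20 for IFIT2 and 0.10 and 0.15 for IFIH1. The count was 3 without confluent shRB replicate 1. The confluent vector arrays are the pair that differed in IFIT1 and IRF1.

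Averaged over the 4 states, 11 genes rose with shRB and 0 fell, where 3.14% of all genes were called higher and 2.72% lower. They were IFI6, IFI35, IFI44, IFIT2, IFIT3, MX1, MX2, OAS3, IFIH1, PSMB8 and PSMB9. The changes ran from 0.30 for MX2 to 1.80 for IFI6, and 1.37 for IFIT3. Second probe sets had the other sign in senescent and confluent cells for IFI44 (-0.45 and -0.26) and OAS3 (-0.09 and -0.22). That of IFIT2 had it in senescent cells (-0.02). Other probe sets of IFIT3 and IFIH1 had the same sign in both states. IFIT3 was above vector on average in each state, with changes of 2.12 in senescent, 1.5 in confluent, 1.05 in low-serum and 0.80 in growing cells. The count over states was 6 without senescent vector replicate 2, and 7 without senescent shRB replicate 1 or low-serum vector replicate 2.

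Whether the change with senescence itself differed between shRB and vector was tested directly. The change from growing to senescent, shRB minus vector, was called for 2 of 33 genes, where 0.576% of all genes were called higher and 0.217% lower. IFI6 gave 4.87 ± 1.05 (SE, adjusted p = 0.02) and ISG20 1.99 ± 0.37 (SE, adjusted p = 0.0044). IFI6 in growing cells had 5.53 and 5.87 with shRB and 5.65 and 5.35 with vector, so the arrays of the 2 groups overlapped. The ISG20 call held in all 8 fits without 1 array. The IFI6 call held in the fit without senescent shRB replicate 2, in which 4 genes were called, and was lost in the other 7, in each of which 1 gene was called. For the changes into low serum and into confluence, 0 of 33 were called between shRB and vector, where 0.00506% and 0.981% of all genes were. At an unadjusted p under 0.05 in limma, 1 and 2 of the 33 were found, where 668 and 1938 of all 19775 genes were.

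**Figure D4:**
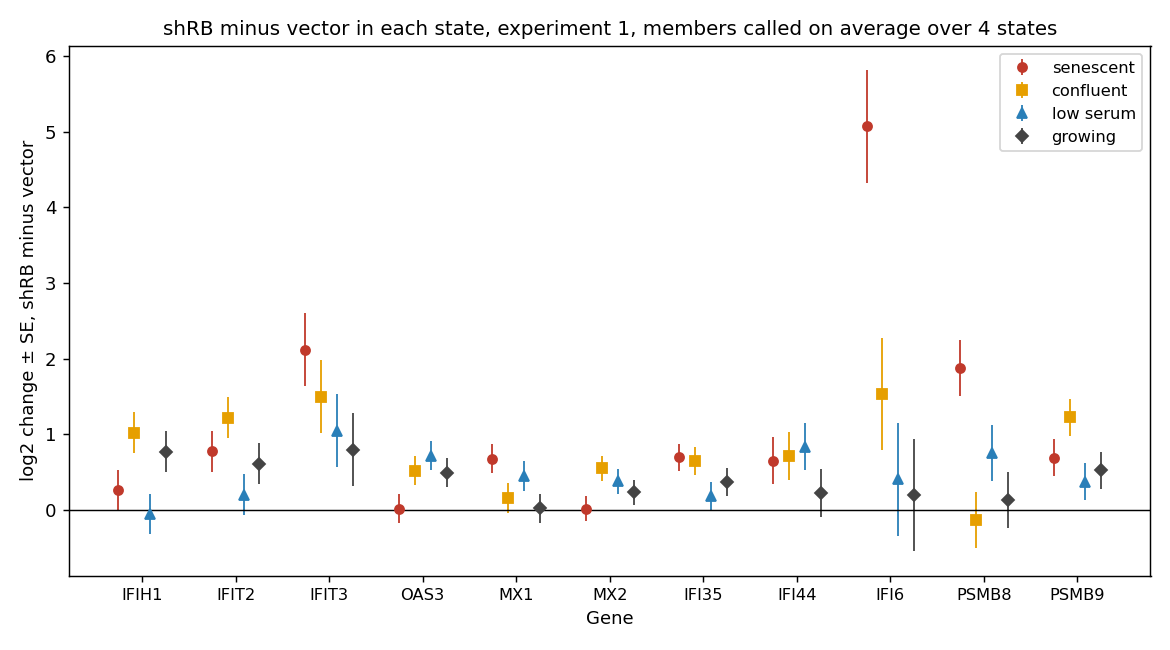
Log2 change (shRB minus vector, ± SE, 2 arrays per group) in senescent, confluent, low-serum and growing cells of experiment 1 for the 11 genes called on average over the 4 states. IFI6 and PSMB8 are highest in senescent cells, and PSMB9, IFIT2 and IFIH1 in confluent cells.

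The hairpins against p107 and p130 give the same comparison for the other family members. With shp130, 0 genes were called against vector in any state or on average, where 0.0253% of all genes were called in growing, 0.192% in low-serum, 0.0101% in confluent and 0.855% in senescent cells, and 0.354% on average. At an unadjusted p under 0.05 in limma, 2, 0, 2, 3 and 1 genes were found in that order, where 940, 992, 953, 2561 and 1889 of all 19775 genes were. Without confluent vector replicate 1, 1 gene was called in confluent cells. With shp107, 0 genes were called in growing and low-serum cells, where 0% and 0.0961% of all genes were. An unadjusted p under 0.05 was found for 2 and 0, where it was found for 513 and 552 of all genes. In confluent cells IFIT2 and IFIH1 rose with shp107, where 2.89% of all genes were called higher and 2.42% lower. IFIT2 had 4.80 and 4.40 in confluent shp107 cells, against the confluent vector values above, and rose by 1.19 ± 0.27 (SE, adjusted p = 0.00591). IFIH1 rose by 0.89 ± 0.27 (SE, adjusted p = 0.0468). The comparisons of the 3 hairpins share their vector arrays. The confluent shp107 count was 1 without confluent shp107 replicate 1 and 4 without confluent vector replicate 2.

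In senescent cells, RIGI and SAMD9 rose with shp107 and IFITM2 and IFITM3 fell, where 0.845% of all genes were called higher and 2.06% lower. RIGI had 5.88 and 6.65 in senescent shp107 and 4.78 and 4.81 in senescent vector cells. Both shp107 arrays were above every vector array of the state, and the change was 1.47 ± 0.28 (SE, adjusted p = 0.00186). It was 0.44 and not called with the mean over all RIGI probe sets, of which the other two gave -0.28 and 0.14. SAMD9, a cytoplasmic protein that restricts poxviruses, had 7.04 and 5.59 with shp107 and 4.97 and 4.95 with vector, and rose by 1.36 ± 0.37 (SE, adjusted p = 0.0444). IFITM3 had 10.16 and 8.64 with shp107 and 11.16 and 10.94 with vector, and fell by 1.65 ± 0.32 (SE, adjusted p = 0.0027). IFITM2 fell by 1.37 ± 0.29 (SE, adjusted p = 0.00572). Senescent shp107 replicate 2 was the lower of the pair for both, and without it the IFITM calls and the RIGI call were lost and the count of 4 became 1. The count was also 1 without senescent vector replicate 1. On average over the states RIGI alone was called with shp107, at 0.55 ± 0.14 (SE, adjusted p = 0.0314), where 1.16% of all genes were called higher and 0.905% lower. That call was lost in 11 of the 16 fits without 1 array. The change from growing to senescent was next compared between shp107 and vector and between shp130 and vector. At an unadjusted p under 0.05 in limma, 5 and 1 of 33 genes were found, where 1458 and 1761 of all genes were. The number called was 0 of 33 in both, where 0.647% and 0.0657% of all genes were called. For shp107 that count was 3 without senescent shp107 replicate 1. For the changes into low serum and into confluence, 0 were called between shp107 and vector, where 0.0101% and 1.26% of all genes were, and 0 between shp130 and vector, where 0.00506% and 0.0101% were. The numbers at an unadjusted p under 0.05 in limma were 0 and 3 for shp107, where 443 and 1605 of all genes passed. For shp130 they were 0 and 0, where 845 and 891 of all genes passed.

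The state comparisons set senescent, low-serum and confluent cells against growing cells. In vector cells of experiment 1, 3 of 33 genes fell with senescence and 0 rose, where 6.21% of all genes were called lower and 3.62% higher. They were IFIT5, IFI35 and PSMB8. This share, 3 of 33, was close to that of all genes. In experiment 2, 16 fell and 2 rose, where 11.9% of all genes were called lower and 10.7% higher. IFIT5, IFI35 and PSMB8 fell in both, which is all 3 of the first list and 18.8% of the second. For 20 of 33 genes the sign was the same, and neither this count nor the overlap was computed over all genes. The median change of the 33 genes was -0.15 in experiment 1 and -0.35 in experiment 2, against -0.01 and 0.04 for all genes. The difference between the experiments was tested and called for 0 of 33, where 1.73% of all genes were called. At an unadjusted p under 0.05 in limma, 6 of the 33 were found, where 2445 of all 19775 genes were.

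IFIT5 showed the steadiest change of the set. It had 5.98 and 5.95 in senescent vector and 8.77 and 8.34 in growing vector cells of experiment 1, and fell by 2.59 ± 0.40 (SE, adjusted p = 4.79e-05). In experiment 2 it had 5.99 and 5.98 in senescent and 7.67 and 7.84 in growing vector cells, and fell by 1.76 ± 0.22 (SE, adjusted p = 6.34e-05). A dimmer IFIT5 probe set gave falls of 1.02 and 0.95. IFIT5 also fell in the hairpin cells, by 2.40 ± 0.40 (SE, adjusted p = 8.48e-05) with shRB, 1.99 ± 0.40 (SE, adjusted p = 0.000711) with shp107 and 2.29 ± 0.40 (SE, adjusted p = 0.000165) with shp130. No senescent array of either experiment reached the level of any growing one. In each of these comparisons the call held under every alternative and without any 1 array.

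IFI35 had 2.90 and 3.04 in senescent and 4.10 and 3.75 in growing vector cells of experiment 1, and fell by 0.96 ± 0.18 (SE, adjusted p = 0.000599). In experiment 2 it fell by 0.97 ± 0.17 (SE, adjusted p = 0.00108). PSMB8 had 3.65 and 3.36 in senescent and 5.13 and 4.75 in growing vector cells of experiment 1. Its fall was 1.44 ± 0.37 (SE, adjusted p = 0.0109) there and 1.09 ± 0.24 (SE, adjusted p = 0.00496) in experiment 2. Both senescent arrays lay below both growing arrays in each case. IFI6 fell in experiment 2, with 3.29 and 3.48 in senescent and 5.06 and 3.94 in growing vector cells, by 1.11 ± 0.28 (SE, adjusted p = 0.0111). In experiment 1 its change was -2.20 ± 0.74 (SE, adjusted p = 0.062), larger in size but with a larger SE, and not called.

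The other genes that fell in experiment 2 were IFI44, IFIT1, IFIT2, IFIT3, IFITM1, IFITM2, IFITM3, MX2, OAS3, USP18, SAMD9 and PSMB9. The second probe set of IFI44 had the other sign, with a difference of 0.15, and those of IFIT2, IFIT3 and OAS3 gave smaller falls of 0.29, 0.24 and 0.15. IFITM1 had 5.87 and 6.08 in senescent and 8.40 and 7.16 in growing vector cells, and fell by 1.81 ± 0.33 (SE, adjusted p = 0.00147). IFIT1 had 2.43 and 2.39 in senescent and 3.52 and 3.61 in growing vector cells, and fell by 1.16 ± 0.13 (SE, adjusted p = 2.31e-05). These groups did not overlap. Among the remaining 10 the falls ran from 0.35 (MX2) to 1.14 (IFITM2). IRF1 and TAP1 rose. IRF1 had 5.72 and 5.84 in senescent and 4.54 and 4.20 in growing vector cells, and rose by 1.41 ± 0.19 (SE, adjusted p = 0.000138), while its second probe set gave 0.36. TAP1 rose by 0.62 ± 0.21 (SE, adjusted p = 0.0483). The count of 18 became 11 without senescent vector replicate 1 and 10 without replicate 2.

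Fibroblast markers moved in the same comparison. In vector cells 5 of 7 fell with senescence in experiment 1, DCN and COL3A1 most, and their summed log2 level was 68.5 in senescent and 77.2 in growing cells. In experiment 2 the sums were 67.2 in senescent and 80.6 in growing vector cells. Their part in the falls above was not tested.

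**Figure D5:**
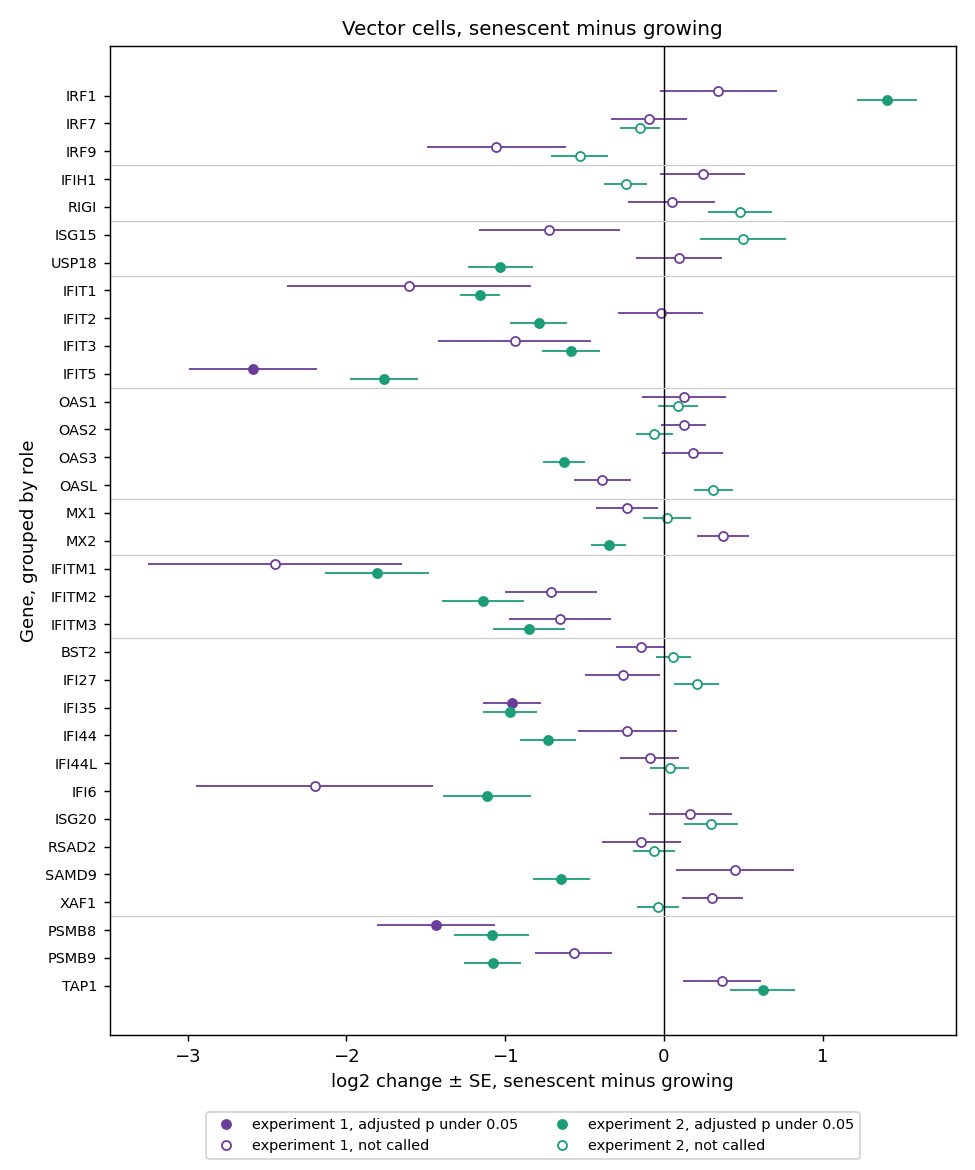
Log2 change (senescent minus growing, ± SE) of 33 genes in vector cells of experiment 1 (purple) and experiment 2 (green), in rows by role, with filled points for adjusted p under 0.05. IFIT5 lies farthest to the left in experiment 1, and most points of experiment 2 lie left of 0.

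In hairpin cells the senescent changes were mixed. With shRB, 3 genes rose and 4 fell, where 6.01% of all genes were called higher and 8.27% lower. IFI6 had 10.28 and 6.47 in senescent and 5.53 and 5.87 in growing shRB cells, and rose by 2.67 ± 0.74 (SE, adjusted p = 0.014). ISG20 rose by 2.16 ± 0.26 (SE, adjusted p = 7.12e-07) and RIGI by 0.95 ± 0.28 (SE, adjusted p = 0.0189). The RIGI rise rests on 1 probe set. Between senescent shRB and vector cells that probe set differed by 0.84, and other RIGI probe sets by -0.07 and -0.10. The genes that fell were IFIT5, IFI35, IFITM2 and IFITM3. The IFI6 rise was 0.77 and not called without senescent shRB replicate 1, and the count of 7 became 4 without growing shRB replicate 1. With shp107, RIGI, SAMD9 and TAP1 rose and ISG15, IFIT2, IFIT5, IFITM1, IFITM2 and IFITM3 fell, where 7.31% of all genes were called higher and 8.62% lower. IFITM1 had 6.81 and 3.03 in senescent and 8.28 and 8.14 in growing shp107 cells, and fell by 3.29 ± 0.80 (SE, adjusted p = 0.00422). Without senescent shp107 replicate 2 that call was lost, and the count of 9 became 5, as it did without growing shp107 replicate 1. With shp130, IRF1 rose and IFIT3, IFIT5, PSMB8 and PSMB9 fell, where 6.14% of all genes were called higher and 8.06% lower. IFIT3 had 3.83 and 3.51 in senescent and 5.43 and 5.51 in growing shp130 cells, and fell by 1.80 ± 0.48 (SE, adjusted p = 0.0109). The count of 5 was 2 without senescent shp130 replicate 2 and 3 without either growing shp130 array.

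Averaged over vector and the 3 hairpins, 5 genes rose with senescence and 10 fell, where 14.1% of all genes were called higher and 17.3% lower. The share that rose, 5 of 33, was close to that of all genes. ISG20, IRF1, RIGI, SAMD9 and TAP1 rose. IFIT5 fell by 2.32 ± 0.20 (SE, adjusted p = 4.96e-10), IFITM1 by 1.72 ± 0.40 (SE, adjusted p = 0.00131) and IFITM2 by 1.13 ± 0.14 (SE, adjusted p = 4.57e-07), and IFI35, IFIT1, IFIT2, IFIT3, IFITM3, PSMB8 and PSMB9 fell as well. For ISG20 the 4 single changes were 2.16 with shRB, 0.65 with shp107, 0.17 with shp130 and 0.17 with vector, of which the first was called. In experiment 2, senescent shRB cells can also be set against growing vector cells, which differ in both hairpin and state. There 13 genes were higher and 5 lower, where 9.46% of all genes were called higher and 10.5% lower. OASL had 4.19 and 4.29 in senescent shRB and 2.64 and 2.57 in growing vector cells, a rise of 1.64 ± 0.12 (SE, adjusted p = 8.84e-07). ISG15 and IFI27, which were called in neither of the other comparisons of experiment 2, were higher by 1.36 and 0.52. IFIT5, IFITM1, IFITM2, IFITM3 and IRF7 were lower.

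Low serum was then compared with growing cells. In single comparisons 4, 2, 6 and 4 of 33 had an unadjusted p under 0.05 in limma in shRB, shp107, shp130 and vector cells. Of all 19775 genes 2338, 2701, 3545 and 3638 did, so the shares of the 33 lay near or below those of all genes. The number called was 0 in each of the 4, where 2.41%, 2.77%, 4.58% and 5.23% of all genes were called. The vector count was 2 without low-serum vector replicate 2. Averaged over the 4, IFI6, IFIT3, IRF7, IRF9 and IFIH1 rose and 0 fell, where 12.8% of all genes were called higher and 10.4% lower. The share that rose, 5 of 33, was close to that of all genes. IFI6 had 8.20 and 7.70 in low-serum and 5.53 and 5.87 in growing shRB cells. It had 8.68 and 6.41 in low-serum and 5.65 and 5.35 in growing vector cells. All 8 low-serum arrays were above all 8 growing arrays for this gene, and the average rise was 2.10 ± 0.37 (SE, adjusted p = 0.000149). IRF9 rose by 0.90 ± 0.22 (SE, adjusted p = 0.00402) and IRF7 by 0.58 ± 0.12 (SE, adjusted p = 0.000894). The count of 5 became 3 without growing vector replicate 2, low-serum vector replicate 1 or low-serum shp107 replicate 1.

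With confluence, ISG20 rose in vector cells and IRF1 in shp130 cells, where 4.41% and 3.78% of all genes were called higher. 0 of the 33 fell in either, where 5.79% and 4.1% of all genes were called lower. ISG20 had 4.15 and 4.51 in confluent and 3.68 and 3.25 in growing vector cells, and rose by 0.87 ± 0.26 (SE, adjusted p = 0.033). IRF1 had 5.37 and 6.04 in confluent and 4.68 and 4.06 in growing shp130 cells, and rose by 1.34 ± 0.37 (SE, adjusted p = 0.0234). Both calls were lost without replicate 2 of the growing cells and without replicate 2 of the confluent cells. In shRB and shp107 cells 7 and 6 had an unadjusted p under 0.05 in limma, where 3390 and 2752 of all 19775 genes did. The number called was 0 in both, where 4.13% and 2.88% of all genes were called. The count was 1 in shRB cells without confluent shRB replicate 2, and 1 in shp107 cells without either confluent shp107 array. Averaged over the 4, IFI6, ISG20, IFITM1, IRF1 and IFIH1 rose and ISG15 fell, where 11.4% of all genes were called higher and 12.8% lower. The share that rose, 5 of 33, was near that of all genes. IRF1 rose by 0.87 ± 0.18 (SE, adjusted p = 0.000846), IFI6 by 1.18 ± 0.37 (SE, adjusted p = 0.0222), and ISG15 fell by 0.73 ± 0.22 (SE, adjusted p = 0.0175). The count of 6 became 2 without growing shRB replicate 1 and 3 without confluent shp130 replicate 1. The vector count of 1 was 3 without confluent vector replicate 1 and 2 without replicate 2.

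Other genes of the pathway were described by 4 lists, which were also chosen with earlier results of these data known. Of 21 ligand, receptor and signalling genes measured, 1 rose with shRB in senescent cells of experiment 1 (the receptor chain IFNGR2, by 1.08 ± 0.26 (SE, adjusted p = 0.0144)) and 1 in experiment 2 (the kinase JAK2, by 0.73 ± 0.15 (SE, adjusted p = 0.00916)), and 0 fell. Of all genes, 2.77% were called higher and 1.27% lower in that comparison of experiment 1, and 6.16% higher and 4.17% lower in experiment 2, so the count of this list lay near or below that of all genes. IFNB1, which encodes interferon beta, was below the array medians on every array, with 2.62 and 2.81 in senescent shRB and 2.45 and 2.64 in senescent vector cells of experiment 1. Of 22 sensing genes, SAMHD1, which degrades nucleotides, rose with shRB in senescent cells of experiment 1 by 1.95 ± 0.28 (SE, adjusted p = 5.21e-05). In experiment 2 the DNA sensor CGAS rose and IRF3 fell.

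Of 38 other interferon-stimulated genes, 11 rose with shRB in senescent cells of experiment 1 and 0 fell, and 18 rose and 0 fell in experiment 2, where 2.77% and 6.16% of all genes were called higher. Their median changes were 0.41 and 0.50, against 0.03 and -0.03 for all genes. The chemokine CXCL10, which attracts T cells, had 10.54 and 9.95 in senescent shRB and 6.05 and 4.73 in senescent vector cells of experiment 1. Both shRB arrays were above both vector arrays, and it rose by 4.85 ± 1.05 (SE, adjusted p = 0.00575), and by 2.64 ± 0.22 (SE, adjusted p = 2.36e-05) in experiment 2. CXCL11, a related chemokine, rose by 2.08 ± 0.37 (SE, adjusted p = 0.000743) and 2.87 ± 0.12 (SE, adjusted p = 1.83e-07), and the helicase-like gene DDX60 by 1.86 ± 0.50 (SE, adjusted p = 0.0292) and 2.04 ± 0.18 (SE, adjusted p = 3.38e-05). PLSCR1, a membrane phospholipid scramblase, rose in both as well. With senescence in vector cells, 1 of the 38 rose and 7 fell in experiment 1, and 5 rose and 16 fell in experiment 2. Of all genes, 3.62% were called higher and 6.21% lower in experiment 1, and 10.7% higher and 11.9% lower in experiment 2, so the counts of genes that rose lay near those of all genes. GBP1 and GBP3, GTPases of cell defence, fell by 2.85 ± 0.26 (SE, adjusted p = 8.39e-09) and 3.60 ± 0.34 (SE, adjusted p = 2.3e-08) in experiment 1. CXCL10 rose with senescence in vector cells of experiment 2, by 2.96 ± 0.22 (SE, adjusted p = 9.31e-07).

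Of 17 antigen presentation genes, PSME1, HLA-B and NLRC5 rose with shRB in senescent cells of experiment 1 and ERAP1 and HLA-DMA in experiment 2, and 0 fell in either, where 2.77% and 6.16% of all genes were called higher. HLA-B, a class I molecule, rose by 1.09 ± 0.27 (SE, adjusted p = 0.017). PSME1, a proteasome activator subunit, rose by 1.21 ± 0.33 (SE, adjusted p = 0.0363), and with senescence in vector cells it fell by 1.53 ± 0.33 (SE, adjusted p = 0.00258).

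The calls were last set beside the promoter windows. Among the 19 genes with an ISRE core, 7 rose with shRB in senescent cells of experiment 1 and 9 in experiment 2, where 2.77% and 6.16% of all genes were called higher. Among the 7 without one, 2 and 3 rose, and among the 7 with no entry 0 and 3. The median changes in experiment 1 were 0.43, 0.69 and 0.33 in that order, and in experiment 2 they were 0.64, 0.28 and 0.26. IFIT5, which held 3 matches, was not called with shRB in senescent cells, whereas IFI6, also with 3, was called in both experiments. Of the other lists, 67.7% of the interferon-stimulated genes, 64.3% of the antigen presentation genes, 23.5% of the sensing genes and 15.8% of the ligand, receptor and signalling genes with a promoter entry held the ISRE core. These shares and counts are descriptions and were not tested.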

How the data were processed

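RNA of IMR90 cells was labelled as biotinylated cRNA from 1 µg of total RNA and hybridised to Affymetrix arrays, per the labels' protocols. The deposited values are log2 expression per probe set. Per the submitters' processing notes they come from GCRMA, which corrects background by probe sequence and normalizes between arrays. No version of it is stated, nor whether all 38 arrays were processed together. The values were used as deposited. Of 54613 probe sets, 41091 name 1 gene in the platform annotation, 1801 several and 11721 were not matched; each of 19775 genes took its probe set with the highest mean.

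Group means were fitted with limma 3.58.1 (R 4.3.3; lmFit, contrasts.fit, eBayes with a trend) within experiment 1 (32 arrays, 16 residual degrees of freedom) and experiment 2 (6 arrays, 3), and over both for differences between them. Each comparison was adjusted over all genes (Benjamini-Hochberg) and called at an adjusted p under 0.05. Differences are hairpin minus vector or state minus growing on the log2 scale, so a fold is a power of 2. The fit was tested on simulated data. Array values are given for genes called with groups that do not overlap and for the 8 with the widest range of group means; other genes singled out, and the arrays described as standing apart, were chosen after their values were seen. The genes and lists were chosen with earlier results of these data known. Alternatives were a filter on low values, 1 prior variance, quantile normalization, the mean over a gene's probe sets, a replicate block, all 38 arrays in 1 fit, and leaving out each array. In the main fits equal replicate numbers were not taken as pairs. Over 120 pairs of groups in experiment 1 the deviations correlated at -0.38 to 0.49, median 0.04, with 38 above 0.1. Within the 6 senescent pairs they ran from 0.02 to 0.20, and within low serum from -0.02 to 0.49. In experiment 2 the 3 pairs ran from -0.14 to 0.62. The mean of the 33 genes was higher in replicate 1 in every growing and senescent group, and in either replicate in low-serum and confluent groups. Some replicate structure is therefore not excluded.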

Additional observations from a re-analysis of the deposited data

Results flagged for a closer look

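The change of IFI6 with senescence differed between shRB and vector cells by a test of the difference itself, with 4.87 ± 1.05 on the log2 scale (SE, limma adjusted p = 0.02). Both senescent shRB arrays lay above both growing shRB arrays, and both senescent vector arrays below both growing vector arrays. The IFI6 call was lost in 7 of the 8 fits without 1 array. The same test gave 1.99 ± 0.37 for ISG20 (adjusted p = 0.0044), and that call held in all 8. For IFIT2, the effect of shRB in senescent cells was larger in experiment 2 than in experiment 1, by 1.55 ± 0.38 (adjusted p = 0.0478). That call was lost without any 1 of the 8 arrays compared, and also with 1 prior variance and with the replicate block, and the filter on low values leaves IFIT2 out.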

How the results depend on the processing

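No called change named in the text turned its direction under these alternatives. Single other probe sets of IRF1, OAS1, OAS3, IFI44, IFIT2 and RIGI had the other sign in some comparisons, as given with them. The counts of called genes that moved by over 1.5 times follow, and their causes were not tested beyond what each alternative itself removes. Keeping the genes above 5 on at least 2 arrays leaves 15 of the 33 genes, and the counts became 3 (low serum, average; 5 otherwise), 1 (shRB, confluent; 5), 0 (shp107, confluent; 2), 4 (shRB, average; 11), 2 (shp107, average; 1), 11 (senescent vector, experiment 2; 18), 7 (shRB, senescent, experiment 2; 17), 10 (senescent shRB minus growing vector; 18) and 0 (shRB effect between experiments; 1). With 1 prior variance for all genes they became 0 (confluent vector; 1), 1 (shp107, confluent; 2), 1 (senescent change, shRB minus vector; 2) and 0 (between experiments). With the mean over all probe sets they became 0 (confluent vector), 1 (low serum, shp130; 0), 1 (shp107, confluent), 3 (confluent average; 6), 0 (shp107, average) and 2 (between experiments). Quantile normalization gave 1 (low serum, shp130) and 9 (shRB, confluent), and with it the share of all called genes that were higher was 48.3% in place of 36.8% (senescent vector, experiment 1) and 47.1% in place of 34.2% (confluent shRB against growing shRB). The fit of all 38 arrays gave 1 (low serum, vector; 0), 1 (low serum, shp130), 1 (confluent shRB; 0), 2 (confluent shp107; 0), 5 (senescent vector, experiment 1; 3), 2 (shp107, average), 9 (senescent vector, experiment 2), 11 (shRB, senescent, experiment 2) and 9 (senescent shRB minus growing vector). With the replicate number as a block the counts were 5 (senescent vector, experiment 1), 2 (shp107, average) and 0 (between experiments), and no other count moved by over 1.5 times.

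Leaving out 1 array at a time, counts of hairpin against vector ran from 2 to 9 (shRB, senescent), 3 to 7 (shRB, confluent), 6 to 14 (shRB, average), 1 to 6 (shp107, senescent), 1 to 4 (shp107, confluent), 0 to 2 (shp107, average) and 0 to 1 (shp130, confluent), and from 10 to 15 for shRB in senescent cells of experiment 2. Senescent against growing counts ran from 4 to 6 with shRB, 5 to 9 with shp107, 2 to 4 with shp130 and 10 to 17 with vector in experiment 2. For confluent against growing cells they ran from 0 to 3 (vector), 0 to 1 (shRB, shp107 and shp130) and 2 to 7 (average), and for low serum from 0 to 2 (vector) and 3 to 6 (average). Differences of a state change from vector ran from 1 to 4 (shRB, senescent), 0 to 3 (shp107, senescent) and 0 to 1 (shp107, confluent), and the shRB effect between experiments from 0 to 2. The lone array of a group is then assumed to vary like the other groups. Low signal limits what can be seen of the 15 genes that passed 5 on no array.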
